A study of Mus musculus with 15 samples.

Results

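The 6 genes described here encode the receptors by which macrophages bind immunoglobulin G (IgG), together with their signalling chain: Fcgr1, Fcgr3, Fcgr4, Fcgr2b, Fcer1g and Fcgrt. They were taken by symbol from a table of 55486 genes, and all 6 passed the filter on low counts, as did 14843 genes in all. Read counts came from 15 bulk RNA-seq libraries, each of macrophages that had been sorted out of a primary PDG-Ink4a glioma of a mouse. In this model the growth factor PDGFB is expressed by force in Nestin-positive progenitors of Ink4a/Arf-knockout mice, and every library carried the genotype label "Ink4a/ArfKO, PDGFB". No library came from a tumour-free brain, so all comparisons were between cells of tumours. The groups were non-lipid-laden microglia (n = 4), lipid-laden microglia (n = 4), non-lipid-laden monocyte-derived macrophages (MDM; n = 4) and lipid-laden MDM (n = 3). "Microglia" and "MDM" without a further word mean the non-lipid-laden cells below. Titles carried the numbers 221, 224, 431 or 718, each once per group, and lipid-laden MDM 431 was not analysed here. The sources used here give neither the age of the mice nor how lipid load was gated, and do not state whether equal numbers mean the same mouse. P-values therefore measure the spread between these libraries.

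Fc receptors join antibody to the cell. FcγRI, FcγRIII and FcγRIV (Fcgr1, Fcgr3, Fcgr4) are the activating receptors of the mouse. They bind the Fc portion of IgG and signal through the common γ chain (Fcer1g), whose ITAM is phosphorylated by Src-family kinases and then binds the kinase Syk, which starts phagocytosis. FcγRIIB (Fcgr2b) carries an inhibitory ITIM that recruits the phosphatase SHIP (Inpp5d) and sets a threshold for the activating receptors. The neonatal Fc receptor FcRn (Fcgrt) pairs with β2-microglobulin (B2m), binds IgG in acidic endosomes and returns it to the surface.

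Fcgr2b (ENSMUSG00000026656, chr1:170958617-170976547), Fcgr4 (ENSMUSG00000059089, chr1:171018920-171029761), Fcgr3 (ENSMUSG00000059498, chr1:171051174-171064935) and Fcer1g (ENSMUSG00000058715, chr1:171229572-171234365) lie in this order on chromosome 1 of the mm10 genome. Fcgr1 (ENSMUSG00000015947) lies at chr3:96282909-96293969 and Fcgrt (ENSMUSG00000003420) at chr7:45092990-45103851. Fcgr4 is on the plus strand and the other 5 are on the minus strand. The activating Fcgr3 and the inhibitory Fcgr2b are near-copies in their extracellular part. Their reference transcripts Fcgr3-201 and Fcgr2b-201 aligned over 509 bases with 491 identical (96.5%). A stretch of 150 coding bases, spanning 2 exons in each gene, is shown because reads from it can hardly tell these receptors apart. It covers bases 291 to 440 of Fcgr3-201 and 380 to 529 of Fcgr2b-201. The capital marks the 1 base that differs (T22G, Fcgr3 base first, counted from the 5′ end of the stretch).
Fcgr3: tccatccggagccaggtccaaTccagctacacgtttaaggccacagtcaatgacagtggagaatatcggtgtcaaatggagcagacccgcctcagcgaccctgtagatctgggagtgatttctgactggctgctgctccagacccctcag
Fcgr2b: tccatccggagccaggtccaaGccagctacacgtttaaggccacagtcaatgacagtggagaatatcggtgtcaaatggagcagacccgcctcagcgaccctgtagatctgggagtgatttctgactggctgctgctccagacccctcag
Of all runs of 50 bases in Fcgr3-201, 166 (12.8%) also occurred in Fcgr2b, and these made up 4.96% of those in Fcgr2b-201. Fcgr1, Fcgr4, Fcer1g and Fcgrt shared no run of 50 bases with any other gene. Runs of Fcgr2b-201 that occur in any other gene came to 8.60% in all. The sources used here do not say how reads matching both genes were counted, and the values of Fcgr3 and Fcgr2b carry that uncertainty. The antisense genes Gm38204 and Gm45669 overlap Fcgr2b and Fcgrt, and whether the counting used strand is likewise unknown here.

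The upstream sequences of the 3 activating receptors are shown because the motif GAGGAA was found near their start sites and not near those of Fcgr2b, Fcer1g or Fcgrt. Each run is the 120 bases before the RefSeq start site on GRCm38.p6, read along the gene. Capitals mark TTCCTC, which is GAGGAA on the other strand, the core to which the macrophage factor PU.1 (Spi1) is known to bind, and TTCNNNGAA, a palindrome known from promoters that respond to interferon gamma.
Fcgr1, chr3:96293970-96294089, minus strand: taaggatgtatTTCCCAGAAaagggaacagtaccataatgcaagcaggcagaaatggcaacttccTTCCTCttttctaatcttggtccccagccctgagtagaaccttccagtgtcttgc
Fcgr3, chr1:171059404-171059523, minus strand: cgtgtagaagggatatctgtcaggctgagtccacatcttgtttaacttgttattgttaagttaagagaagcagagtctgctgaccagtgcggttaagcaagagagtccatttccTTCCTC
Fcgr4, chr1:171018806-171018925, plus strand: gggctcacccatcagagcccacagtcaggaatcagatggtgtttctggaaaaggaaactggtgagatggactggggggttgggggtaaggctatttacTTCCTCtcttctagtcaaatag
Both strands of the 300 bases around each start site (250 before it and 50 after it) were searched. GAGGAA lay 55 bases before the start in Fcgr1, 6 in Fcgr3 and 22 in Fcgr4. It was not found in these windows of Fcgr2b, Fcer1g or Fcgrt. From a further RefSeq start of Fcgr3 it lay 15 bases upstream. TTCNNNGAA was found only 109 bases before the start of Fcgr1. Of 32851 windows of the same length in the RefSeq table, 28.3% held GAGGAA and 8.30% held TTCNNNGAA, so neither is rare, and a match is a description of the letters only.

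Total counts per library ran from 7798952 to 11419338. Levels are given as CPM, the count of a gene relative to its whole library, on library sizes scaled by TMM. In bulk samples, fewer cells of a type and less RNA per cell cannot be told apart. The labels were checked against marker lists. All 10 microglial markers tested, P2ry12 and Tmem119 among them, were lower in MDM than in microglia, and all 8 MDM markers, Ccr2 among them, were higher (edgeR's quasi-likelihood test with Benjamini-Hochberg adjustment over all genes tested). Lipid-laden MDM stood between these: their summed microglial markers were 6832 to 8766 CPM, against 2333 to 3496 in MDM and 10695 to 15522 in microglia. Their summed MDM markers were 1329 to 1487 CPM, against 3045 to 3490 in MDM and 156 to 276 in microglia. NK-cell markers, a cell type that also carries FcγRIII and the γ chain, summed to 313 to 429 CPM in MDM, 57.5 to 117 in lipid-laden MDM and at most 9.73 in either microglial group. In microglia Ncr1, Eomes and Gzmb had 0 counts. Neutrophil markers reached 343 CPM in 1 lipid-laden MDM library and at most 60.2 in the other groups. Dendritic-cell markers summed to 1094 to 2475 CPM in MDM, 401 to 424 in lipid-laden MDM and 154 to 1007 over both microglial groups.

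Every member was well expressed in all 15 libraries. Per kilobase of exon, the γ chain Fcer1g was the most abundant (1431 ± 135 CPM per kb, SD, n = 15), followed by Fcgr3 (1106 ± 282). With the union of exons as the length, their order held in all libraries except microglia 221, where the ratio of Fcgr3 to Fcer1g was 1.03. The other 4 lay close together at 209 ± 66.3 CPM per kb for Fcgr4, 188 ± 79.0 for Fcgrt, 167 ± 43.7 for Fcgr2b and 147 ± 24.0 for Fcgr1, and did not differ in order beyond their spread. With the length of the shortest annotated coding transcript instead of the union of exons, Fcgr2b came to 587 CPM per kb and moved to the third place, because its exon union (3810 bases) is much longer than that transcript (1084 bases). On these shorter lengths Fcgr3 and Fcer1g were nearly level in microglia (1481 and 1492 CPM per kb on average). By CPM, Fcgr3 ranked between 35 in microglia and 73 in MDM among the 14843 genes tested, and Fcer1g between 88 and 114. The plot of CPM by library shows all 6 genes.

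**Figure D1:**
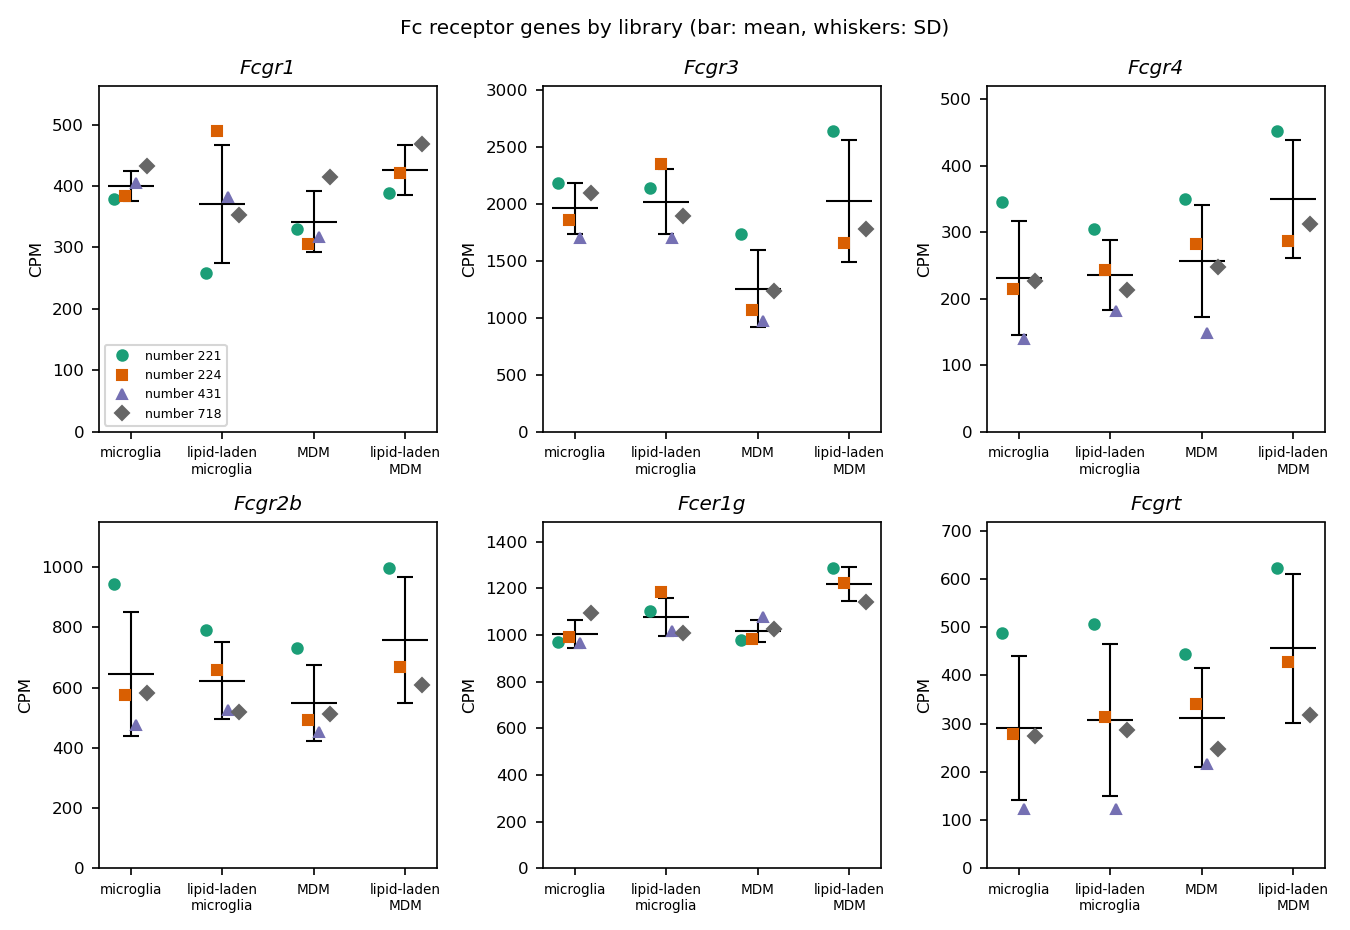
CPM (TMM-scaled library sizes) of the 6 Fc receptor genes in each library, with the mean as a bar and the SD as whiskers. In each group the library of number 221 is the highest for Fcgr4, Fcgr2b and Fcgrt, and the MDM libraries of Fcgr3 lie mostly below those of the other 3 groups.

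Fcgr3, the low-affinity activating receptor, was the member that differed between cell groups. It read 2181 CPM in microglia 221, 1862 in 224, 1700 in 431 and 2101 in 718. In MDM it read 1740 in 221, 1074 in 224, 976 in 431 and 1233 in 718. Thus 3 of the 4 MDM libraries lay below all microglia and MDM 221 lay just above microglia 431, so the groups overlapped at 1 library. Fcgr3 was lower in MDM (log2 fold change -0.64, SE 0.19, 0.640-fold, adjusted p = 0.0210 by edgeR's quasi-likelihood test) and lower in 4 of 4 number-matched pairs (-0.80 to -0.33). It was the only member called in this comparison. Of all genes tested, 23.2% were called and 12.5% were called lower, so 1 of 6 is near that background. The call was lost on leaving out any of 4 of the 8 libraries: the adjusted p was 0.0641 without MDM 224, 0.0690 without MDM 431, 0.0558 without microglia 221 and 0.0558 without microglia 718.

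In lipid-laden MDM, Fcgr3 read 2640 CPM in 221, 1654 in 224 and 1778 in 718. Each exceeded MDM of the same number, while lipid-laden MDM 224 lay below MDM 221, so these groups overlapped too. Fcgr3 was higher in lipid-laden MDM than in MDM (0.69, SE 0.20, 1.61-fold, adjusted p = 0.0458) and higher in 3 of 3 pairs (0.53 to 0.62). It was again the only member called, where 8.17% of all genes were called and 5.21% were called higher. This call lay near the threshold and was lost on leaving out any of 5 of the 7 libraries. The adjusted p was 0.0511 with DESeq2's size factors in place of TMM and 0.0839 when only the 2 groups compared entered the fit. It was 0.236 without lipid-laden MDM 221, where the fold change itself fell from 0.69 to 0.45, 0.0704 without lipid-laden MDM 718, and 0.117, 0.109 and 0.0908 without MDM 224, 431 and 718. All 10 microglial markers were also higher in lipid-laden MDM than in MDM, as were 2 of 7 neutrophil and 1 of 4 B-cell markers tested. Of the NK-cell markers 1 of 9 was lower, of the dendritic-cell markers 5 of 11 and of the MDM markers 3 of 8. Summed neutrophil markers were 17.9 to 59.1 CPM in MDM and 32.8 to 343 in lipid-laden MDM (median 34.2). In MDM against microglia, 6 of 9 NK-cell markers were higher, and of the dendritic-cell markers 10 of 11 were higher and 1 lower. There 2 of 6 T-cell markers and 1 of 7 neutrophil markers were higher, and 1 of 4 B-cell markers was lower. Of 7 markers of glioma and progenitor cells, 6 were lower in MDM than in microglia and 4 were higher in lipid-laden than in non-lipid-laden MDM (112 to 382 CPM in microglia, 13.4 to 28.1 in MDM and 68.3 to 162 in lipid-laden MDM, summed). Markers of mast cells and basophils, which also carry Fc receptors, summed to 141 to 183 CPM in MDM, 8.68 to 49.4 in lipid-laden MDM and at most 29.3 in either microglial group, with 6 of the 11, Fcer1a and Ms4a2 among them, at 0 in MDM. The part of these markers in either Fcgr3 result was not tested.

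In lipid-laden microglia, Fcgr3 read 2145 CPM in 221, 2351 in 224, 1700 in 431 and 1891 in 718. The fitted difference from microglia was 0.04 (SE 0.19, adjusted p = 0.982, 95% interval -0.35 to 0.44). Between lipid-laden MDM and lipid-laden microglia it was 0.00 (SE 0.20, adjusted p = 1, interval -0.43 to 0.43). The lipid-load difference in MDM exceeded that in microglia by 0.64 (SE 0.27, adjusted p = 0.251), which did not pass the test. The comparisons of MDM with microglia and with lipid-laden MDM share the MDM libraries, so they are not independent.

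Fcgr1, the high-affinity activating receptor, read 379 to 433 CPM in microglia, 258 to 489 in lipid-laden microglia, 306 to 415 in MDM and 388 to 469 in lipid-laden MDM. Its lowest and highest libraries, 221 and 224, were both of lipid-laden microglia. Its differences were -0.23 (SE 0.16, adjusted p = 0.357) for MDM against microglia and 0.32 (SE 0.18, adjusted p = 0.312) for lipid-laden against non-lipid-laden MDM, and none passed the test.

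Fcgr4, the activating receptor of intermediate affinity, read 345 CPM in microglia 221, 214 in 224, 139 in 431 and 226 in 718. In lipid-laden microglia it read 305, 242, 181 and 213 in the same order of numbers, and in MDM 349.8, 282, 148 and 247. Lipid-laden MDM read 452 in 221, 287 in 224 and 312 in 718. Number 221 was the highest in all 4 groups and 431 the lowest in all 3 that have it. Between groups Fcgr4 did not pass the test. The fitted difference was widest for lipid-laden MDM against lipid-laden microglia (0.57, SE 0.30, adjusted p = 0.401, interval -0.06 to 1.21), with 3 of 3 pairs positive (0.24 to 0.56), in a comparison where 2.78% of all genes were called. Lipid-laden MDM lacked number 431, the lowest for Fcgr4, whereas lipid-laden microglia included it. With the number as a block in edgeR's quasi-likelihood test the difference was 0.37 (SE 0.13, adjusted p = 0.154).

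Fcgr2b, the inhibitory receptor, read 944 CPM in microglia 221, 577 in 224, 477 in 431 and 581 in 718. Lipid-laden microglia read 790.1, 658, 525 and 518, MDM 732, 494, 451 and 514, and lipid-laden MDM 998 in 221, 669 in 224 and 609 in 718. Each 221 library was the highest of its group, and all groups overlapped. The difference between MDM and microglia was -0.24 (SE 0.23, adjusted p = 0.510) and that between lipid-laden and non-lipid-laden MDM 0.47 (SE 0.25, adjusted p = 0.272, interval -0.05 to 0.99), with 3 of 3 pairs positive (0.25 to 0.45).

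Fcer1g, the γ chain shared by the activating receptors, varied least. It read 966 to 1093 CPM in microglia, 1010.5 to 1183 in lipid-laden microglia, 978 to 1079 in MDM and 1143 to 1289 in lipid-laden MDM. All 3 lipid-laden MDM libraries lay above all 4 MDM libraries, which held for 21.8% of all genes in either direction and for 11.1% in this one. The difference was 0.26 (SE 0.10, adjusted p = 0.141), with 3 of 3 pairs positive (0.16 to 0.40), and did not pass the test. The difference between MDM and microglia was 0.02 (SE 0.10, adjusted p = 0.936, interval -0.19 to 0.22).

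Fcgrt, which encodes FcRn, spread the most within groups. Microglia read 487 CPM in 221, 279 in 224, 124 in 431 and 273 in 718, and lipid-laden microglia 506, 314, 124 and 287. MDM read 445, 340.4, 216 and 248, and lipid-laden MDM 624 in 221, 427 in 224 and 317 in 718. Within microglia the highest library was 3.93 times the lowest. With this spread no comparison of groups passed the test: the difference was 0.10 (SE 0.41, adjusted p = 0.895) for MDM against microglia and 0.55 (SE 0.43, adjusted p = 0.512) for lipid-laden against non-lipid-laden MDM. Its partner B2m read 2309 ± 370 CPM in microglia, 2357 ± 368 in lipid-laden microglia, 2290 in MDM and 2605 in lipid-laden MDM on average, and differed by -0.01 (SE 0.14, adjusted p = 0.965) between MDM and microglia.

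No member was called for lipid load in microglia, where edgeR called 0 of all genes (0%). At an unadjusted p under 0.05 there were 1367 genes, DESeq2 called 164, and edgeR with the number as a block called 119 (0.802%), none of them a member. The unadjusted p of the 6 members in this comparison ran from 0.312 to 0.926. None was called for the difference of the lipid-load effect between MDM and microglia, where 2.53% of all genes were called. All 6 fitted lipid-load differences in MDM were positive, in 3 of 3 pairs each, but only that of Fcgr3 passed the test in the fit without a block for the number. The share of all genes positive in 3 of 3 pairs was not computed. The 6 are not independent, as Fcgr3, Fcgr4, Fcgr2b and Fcgrt varied together within groups (r of 0.68 to 0.89 for each 2 of them). Without lipid-laden MDM 221 the difference of Fcgrt was 0.25 in place of 0.55, that of Fcgr2b 0.22 in place of 0.47 and that of Fcgr4 0.22 in place of 0.45. Lipid-laden MDM lacked number 431, which was the lowest of MDM for Fcgr3, Fcgr4, Fcgr2b and Fcgrt, and within the 3 shared numbers the differences of Fcgr4 were 0.02 to 0.37 and those of Fcgrt 0.33 to 0.49. The plot of fitted differences shows the width of the intervals.

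**Figure D2:**
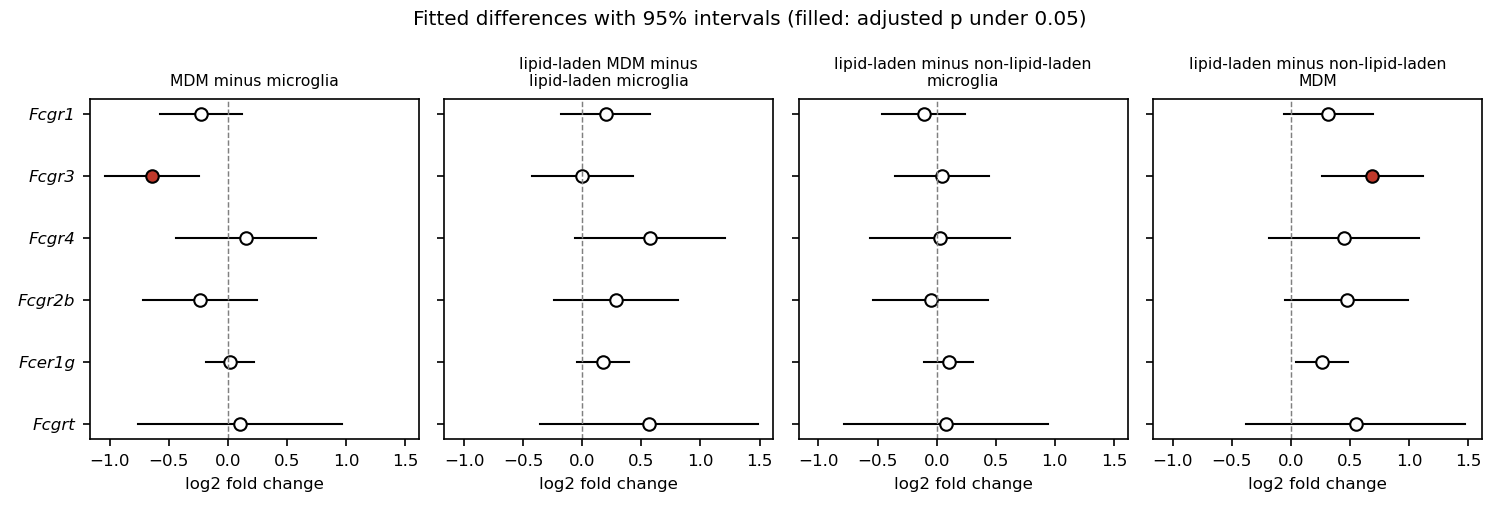
Fitted log2 fold changes of the 6 genes in 4 comparisons, with 95% intervals, and filled where the adjusted p is under 0.05. Fcgr3 is filled at -0.64 for MDM minus microglia and at 0.69 for lipid-laden minus non-lipid-laden MDM, and Fcgrt has the widest intervals.

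Title numbers separated 3 of the 6 genes. A test of the number, added after the values above were seen, asked whether the 4 numbers differed once the cell group was accounted for. It called Fcgrt (adjusted p = 0.00263), Fcgr4 (adjusted p = 0.00512) and Fcgr2b (adjusted p = 0.00528) by edgeR's quasi-likelihood test, where 218 of all genes tested (1.47%) were called. Fcgr3 (adjusted p = 0.132), Fcgr1 (adjusted p = 0.574) and Fcer1g (adjusted p = 0.992) were not called. Number 221 was the highest in 4 of 4 groups for each of the 3 genes called. All 4 libraries of 221 (732 to 998 CPM) lay above all 11 others (451 to 669) for Fcgr2b, and likewise for Fcgrt (445 to 624 against 124 to 427). For Fcgr4, 1 of the 11 others lay above the lowest library of 221. These ranks come from the same values as the calls and add no separate evidence. The share of all genes separated in this way was not computed. Number 431 differed from 221 by -1.67 for Fcgrt, -1.11 for Fcgr4 and -0.77 for Fcgr2b on the log2 scale, and 224 and 718 lay between, at -0.61 and -0.87, -0.50 and -0.54, and -0.53 and -0.63.

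The number took up 75.4% of the variance of log2 CPM of Fcgrt after the cell group, 73.0% of that of Fcgr2b and 67.3% of that of Fcgr4. It took up 25.6% for Fcgr3, 25.5% for Fcgr1 and 1.31% for Fcer1g. After the number, the cell group took up 58.3% for Fcgr3, 59.4% for Fcer1g and 5.90% for Fcgrt. These shares describe the libraries and carry no test. Without the libraries of 221 none of the 3 was called, with 14 genes called in all. The adjusted p was then 0.135 for Fcgrt, 0.210 for Fcgr4 and 0.596 for Fcgr2b. Unadjusted, it was 0.000599, 0.00179 and 0.0930 in the same order (edgeR's quasi-likelihood test). Without only the 2 lipid-laden libraries of 221, Fcgr4 (adjusted p = 0.0452) and Fcgrt (0.0471) were called and Fcgr2b was not (0.0612), with 38 genes called in all. If equal numbers mean the same mouse, the test compares 4 mice and was not a test of any condition. Number 224 also differed from the other numbers in the sex-linked genes Xist and Ddx3y, given below, and the part of this was not tested.

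**Figure D3:**
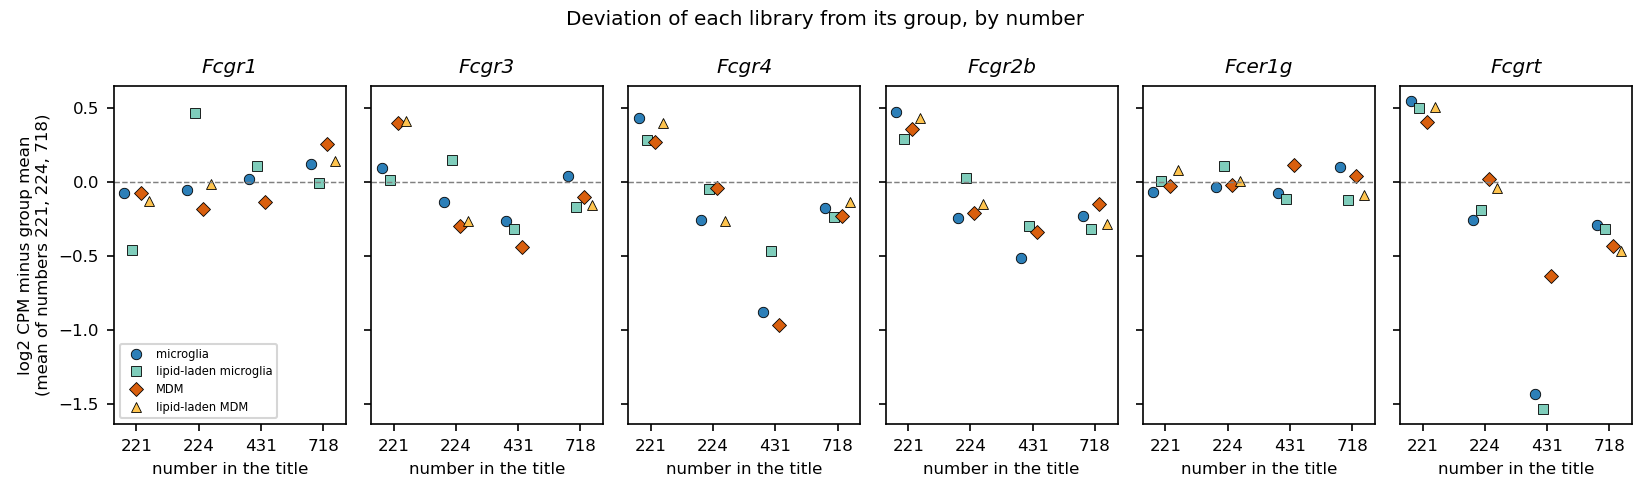
Deviation of each library from its group on the log2 CPM scale, by the number in the title. The group mean is taken over numbers 221, 224 and 718, which all groups have. The points of Fcgr4, Fcgr2b and Fcgrt at 221 all lie above 0 and those at 431 all lie below 0, while the points of Fcer1g stay near 0.

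Some genes known to respond to the cytokine interferon gamma also differed between the numbers. Of the 19 in the list, 9 were called by the test of numbers, against 1.47% of all genes, among them Irf1, Cxcl9, Gbp2, Gbp3, Gbp4, Tap1, Psmb8 and Psmb9. All 9 were highest in number 221 in 4 of 4 groups, and the other numbers lay 0.52 to 4.27 below 221 on the log2 scale. These ranks, too, come from the same values as the calls. Gbp2, a guanylate-binding protein, read 211 to 321 CPM in the libraries of 221 and 40.5 to 181 in the others (adjusted p = 0.00449). Tap1, the peptide transporter for MHC class I, read 225 to 422 CPM against 109 to 264 (adjusted p = 0.00479). Psmb8, a subunit of the immunoproteasome, read 316 to 546 CPM against 177 to 480 (adjusted p = 0.0130). Of the 10 not called, Irf8 was lowest in 221 in 3 groups, and Cxcl10 was highest in 221 in 0 groups. B2m was called as well (adjusted p = 0.0221), with 2612 to 3024 CPM in 221 and 1991 to 2436 in the others. Fcgr1 was in 0 of 4 groups highest in 221 and read 258 to 388 CPM there against 306 to 489 in the others. The Fc receptor-like gene Fcrls went the other way: it was lowest in 221 in 4 of 4 groups, and the other numbers lay 1.33 to 1.56 above it (adjusted p = 0.000324). Summed NK-cell markers were highest in 221 in 4 of 4 groups (9.08 to 429 CPM, against 0 to 356), and 0 of the 9 tested were called by number. T-cell markers were highest in 221 in 3 groups (1.86 to 64.6 CPM, against 0 to 33.1), and 1 of 6, Cd8a, was called. Of 7 neutrophil markers tested, 1, Mpo, was called, and their sum was highest in 221 in 2 groups. Their part in these differences was not tested.

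The balance of activating to inhibitory transcripts was read as a ratio of CPM per kb within each library, which cancels the depth, and is given with no test. The ratio of Fcgr3 to Fcgr2b was 7.44 ± 1.41 in microglia (SD, n = 4), 7.70 ± 0.996 in lipid-laden microglia, 5.33 ± 0.297 in MDM and 6.26 ± 0.525 in lipid-laden MDM. MDM ran from 5.06 to 5.62 and microglia from 5.40 in 221 to 8.46 in 718, so these groups overlapped through microglia 221. The ratio of Fcgr4 to Fcgr2b was 1.08 ± 0.130 in microglia and 1.41 ± 0.304 in MDM. That of Fcgr1 to Fcgr4 was 0.935 ± 0.360 in microglia and 0.708 ± 0.267 in MDM, and was lowest in 221 in every group. The ratio of Fcgr3 to its signalling chain Fcer1g was 0.896 ± 0.0952 in microglia and 0.571 ± 0.173 in MDM. The absolute ratios depend on the exon lengths used and on how shared reads were counted, whereas their order over groups does not depend on the lengths.

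**Figure D4:**
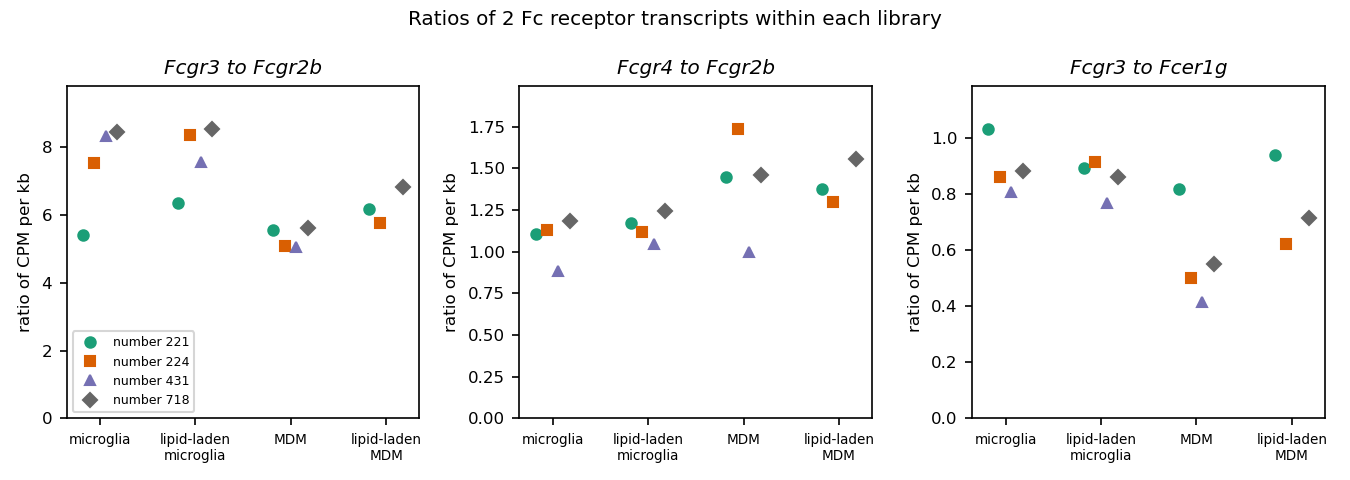
Ratios of CPM per kb within each library: Fcgr3 to Fcgr2b, Fcgr4 to Fcgr2b and Fcgr3 to Fcer1g. Microglia 221 has the lowest ratio of Fcgr3 to Fcgr2b of its group (5.40), close to the MDM libraries (5.06 to 5.62).

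Downstream of the receptors, some kinases and adaptors differed between MDM and microglia. Counts are given beside 10.7% of all genes called higher and 12.5% called lower in MDM, and medians beside a median of -0.12 over all genes. Of the 8 proximal kinases, 4 were higher in MDM and 0 lower (median 0.70), among them the Src-family kinases Fgr (3.09, SE 0.31, adjusted p = 5.01e-06) and Fyn (2.52, SE 0.28, adjusted p = 1.32e-05) and the kinase Syk (0.92, SE 0.17, adjusted p = 0.00112). Syk read 95.8 ± 19.6 CPM in microglia and 181 ± 19.3 in MDM. Of 25 adaptors and effectors, 4 were higher and 5 lower (median 0.01): Malt1, of the Card9-Bcl10 complex, was higher (3.41) and Blnk, which links Syk to phospholipase C, lower (-1.95). The ITAM adaptor Tyrobp (DAP12) read 986 ± 126 CPM in microglia and 913 ± 98.2 in MDM, a difference of -0.11 (SE 0.13, adjusted p = 0.582). Of the 7 tested members of the list of ITAM adaptors and receptors that pair with the γ chain, 4 were higher and 0 lower, with the C-type lectins Clec4n (4.83), Clec4e (4.13) and Clec4d (3.61) among them. These lectins are related in sequence, and reads shared among them were not examined.

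On the inhibitory side, 4 of 11 phosphatases and adaptors were higher in MDM and 2 lower (median 0.34). Ptpn6 (SHP-1) was higher (0.51, SE 0.12, adjusted p = 0.00460) and the adaptor Pag1 lower (-2.31), while Inpp5d, the SHIP phosphatase used by FcγRIIB, did not pass the test (-0.46, SE 0.21, adjusted p = 0.130). Of 13 other ITIM receptors, 5 were higher and 2 lower, with Pirb (2.74, one of a family of near-copies), Siglece (2.56) and Cd300a (1.85) higher. Of 29 genes of the phagocytic cup, 13 were higher and 2 lower (median 0.32), among them Gsn (3.09), Myo1g (2.02) and Pak1 (2.00). Spi1, which encodes PU.1, read 473 ± 68.6 CPM in microglia and 626 ± 33.0 in MDM, and was higher in MDM (0.40, SE 0.13, adjusted p = 0.0412). Of the 19 genes of the interferon gamma response, 6 were higher and 2 lower in MDM (median 0.71), with the receptor chain Ifngr1 higher (1.02) and the factor Irf8 (-0.85) and the chemokine Cxcl10 (-0.85) lower. NK-cell, dendritic-cell and T-cell markers were higher in MDM as well (6 of 9, 10 of 11 and 2 of 6 tested), and their part in these lists was not tested.

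With lipid load in MDM, where 5.21% of all genes were called higher and 2.96% lower, several of these genes were called in the opposite direction. Fyn (-2.28), Fgr (-1.68), Malt1 (-1.64), Pak1 (-1.92) and Siglece (-2.04) were lower in lipid-laden than in non-lipid-laden MDM, and Blnk (1.62) was higher. By list, 0 of 8 proximal kinases were higher and 2 lower, 3 of 25 adaptors were higher and 2 lower, 3 of 13 ITIM receptors were higher and 2 lower, and 2 of 29 genes of the phagocytic cup were higher and 6 lower. Cd22 (1.53) and Sirpa (0.81), both ITIM receptors, were among those higher. The difference of the lipid-load effect between MDM and microglia was itself called for Fyn (-2.81, adjusted p = 0.00314), Gsn (-2.33, adjusted p = 0.00863), Fgr (-1.96, adjusted p = 0.0241) and Blnk (1.80, adjusted p = 0.00821). Of all genes, 1.6% were called with a positive and 0.93% with a negative difference of effects. Both comparisons share the MDM libraries. Marker lists also differed between lipid-laden and non-lipid-laden MDM. All 10 microglial markers were higher in the lipid-laden cells, as were 4 of 7 glioma and progenitor, 2 of 7 neutrophil and 1 of 4 B-cell markers tested. Lower were 5 of 11 dendritic-cell, 3 of 8 MDM and 1 of 9 NK-cell markers. Their part in the differences of these lists was not tested. In the interferon gamma list, Irf8 (0.61) was higher in lipid-laden than in non-lipid-laden MDM, and Ifngr1 (-0.76) and Socs1 (-1.21) were lower. Between lipid-laden MDM and lipid-laden microglia, 2.2% of all genes were called higher and 0.579% lower in MDM. Of these lists, 2 of 25 adaptors (Malt1, 1.81, and Skap2, 0.65), 4 of 13 ITIM receptors (Cd300a at 1.22 among them) and 1 of 29 genes of the phagocytic cup (Actr3, 0.65) were higher there, and 0 were lower.

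**Figure D5:**
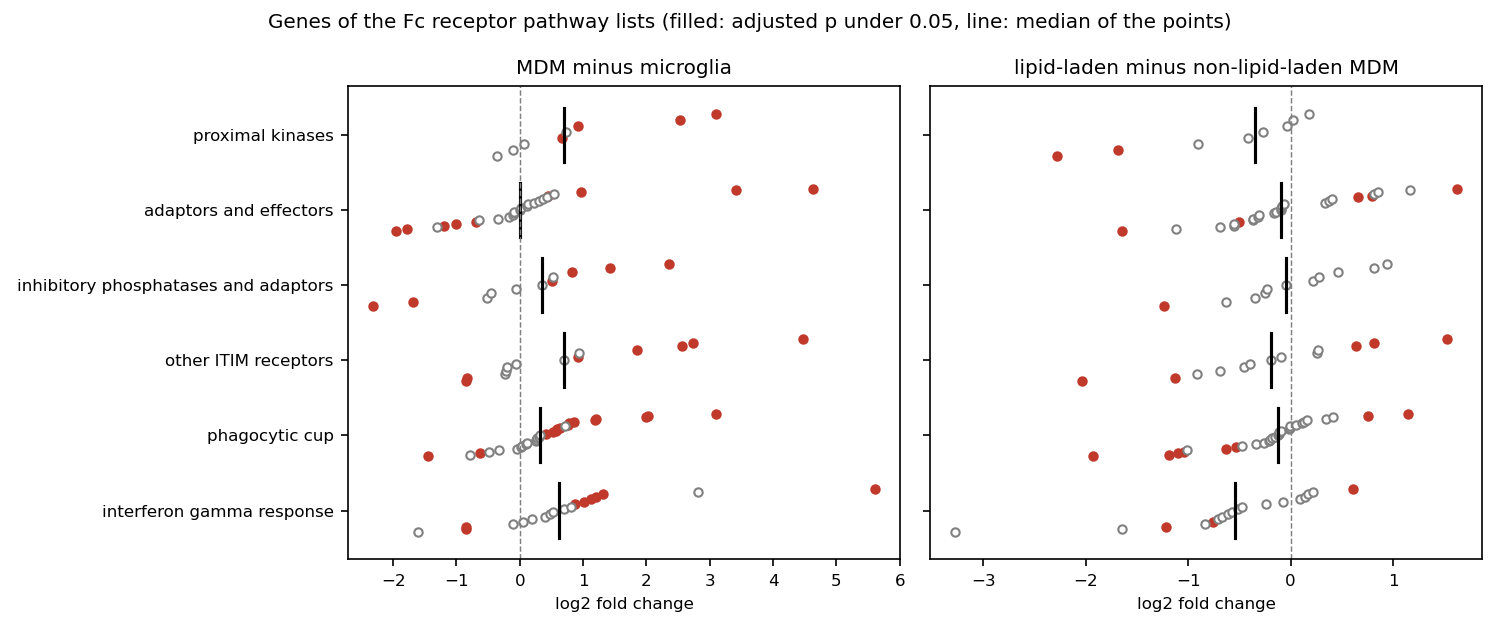
Log2 fold changes of the genes of 6 pathway lists for MDM minus microglia and for lipid-laden minus non-lipid-laden MDM. Each point is a gene, filled where the adjusted p is under 0.05, and the line is the median of the points. Proximal kinases have a median of 0.70 in the first comparison and -0.35 in the second.

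Other Fc receptors were mostly low or near 0. Of 13 in the list, 6 passed the filter. Fcrls, a microglial Fc receptor-like gene, was abundant, at 2484 ± 988 CPM in microglia, 766 ± 281 in MDM and 2412 ± 1138 in lipid-laden MDM. It was lower in MDM than in microglia (-1.70, SE 0.44, adjusted p = 0.0104) and higher in lipid-laden than in non-lipid-laden MDM (1.65, SE 0.46, adjusted p = 0.0367), the directions called for Fcgr3. Fcmr, the IgM Fc receptor, had 0 counts over the microglia libraries and 59 over MDM, at least 18.7-fold higher against a floor of 3 counts over the group (adjusted p = 0.0495). This call lay near the threshold and rests on low values: Fcmr read 0 CPM in every library of 221, MDM included, and at most 2.44 CPM in the others. Immunoglobulin transcripts were also counted: Igha had 0 counts in microglia and 1783 in MDM (at least 566-fold higher), and Igkc 0 and 461 (at least 146-fold higher), the only 2 of 5 tested immunoglobulin constant genes called. The pooled counts of Igkc were uneven: it reached 35.2 CPM in the libraries of 221 and at most 11.0 in those of the other numbers. Igha was lower in lipid-laden than in non-lipid-laden MDM (-3.71, SE 0.54, adjusted p = 0.00305). These bounds cover counting error only, and immunoglobulin genes are a family of near-copies. The 5 plasma-cell markers summed to 8.85 to 38.0 CPM in MDM, 4.29 to 7.95 in microglia and 4.97 to 15.2 in lipid-laden MDM, and 0 of the 2 tested were called between MDM and microglia. Jchain had 0 counts in microglia and 137 in MDM, Tnfrsf17 had 25 and 0, and Mzb1 had 0 in all 4 groups. Their part in the immunoglobulin result was not tested.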

How the data were processed

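Bulk RNA-seq of 15 libraries was analysed from a table of whole-number read counts per gene, not normalized, which the authors deposited. RNA was primed with oligo-dT and copied with a template switch, per the labels' protocols. Per the submitters' processing notes the genome was mm10. The sources used here do not name the aligner or counter, nor say whether strand was used. All columns belonged to these libraries, and 1 entry without a gene held 0 counts.

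The quasi-likelihood test of edgeR 4.0.16 (R 4.3.3) was run with TMM, filterByExpr (minimum count 10, minimum total 15) and Benjamini-Hochberg adjustment over 14843 genes. All libraries entered 1 fit with a coefficient per group, and the threshold was an adjusted p of 0.05. The SE was taken from the fitted change and its F statistic, and intervals are at 95%. CPM per kb used the exon union of coding transcripts in GENCODE. Log2 CPM used a prior count of 2. The scripts were tested on simulated data. Alternatives were DESeq2 1.42.0, limma-voom (limma 3.58.1), other scalings, no filter, the title number as a block, only the groups compared, and leaving out each library.

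The genes and lists were chosen with earlier results of these data known, and the test of title numbers was added after the values were seen. The 6 genes are named throughout, with B2m, Tyrobp, Spi1, Syk, Inpp5d and Ptpn6. Per list and comparison, up to 3 called genes with the smallest p are named, or the 1 with the smallest p where none was called. The genes of the interferon list named for the test of numbers were chosen after their values were seen. A few results are not reported here.

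Same-numbered libraries deviated together from their groups (correlation over 0.1 in every pair) for lipid-laden MDM with lipid-laden microglia (0.107 to 0.168) and for lipid-laden with non-lipid-laden microglia (0.124 to 0.256). The titles do not say what a number is. Xist was at most 0.429 CPM and Ddx3y 122 to 188 CPM in all libraries of 224, and the reverse held in the other numbers (Xist 157 to 493, Ddx3y 0).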

Additional observations from a re-analysis of the deposited data

Results flagged for a closer look

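Fcgr2b, the inhibitory receptor, had origin differences of opposite sign by lipid load in every pair. It read lower in MDM than in microglia in 4 of 4 number-matched pairs (-0.37 to -0.08 on the log2 scale) and higher in lipid-laden MDM than in lipid-laden microglia in 3 of 3 pairs (0.02 to 0.34). The difference between these effects was 0.52 (SE 0.34, adjusted p = 0.478 by edgeR's quasi-likelihood test). It did not pass the test, and the smallest pair difference was close to 0.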

How the results depend on the processing

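Depth was 7798952 to 11419338 counts per library, and groups held 3 or 4 libraries, which bounds the precision. Of the single-gene values over all alternatives, 464 kept their direction and side of the threshold, 11 lost a call, all of them of Fcgr3, 3 gained one and 26 changed sign, none of them called. The cause of these changes was not tested, except that leaving out libraries reduces their number.

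Sign changes by setting: Fcgr3 in lipid-laden MDM against lipid-laden microglia, near 0 throughout, was -0.0276 with DESeq2, -0.0219 with limma-voom, -0.0276 with DESeq2's size factors, -0.0684 with total counts, -0.0030 without a filter, -0.11 with the replicate block and -0.14 with the replicate block in DESeq2. Fcer1g in MDM against microglia was -0.0886 with total counts.
Leaving out 1 library moved values over these ranges. For MDM against microglia they were -0.84 to -0.52 for Fcgr3, -0.0326 to 0.43 for Fcgr4, -0.41 to 0.0233 for Fcgr2b and -0.12 to 0.49 for Fcgrt. For lipid-laden MDM against lipid-laden microglia Fcgr3 ran from -0.23 to 0.13. For lipid load in microglia they were -0.25 to 0.0297 for Fcgr1, -0.0136 to 0.14 for Fcgr3, -0.14 to 0.31 for Fcgr4, -0.18 to 0.21 for Fcgr2b and -0.27 to 0.47 for Fcgrt. For lipid load in MDM they were 0.45 to 0.89 for Fcgr3, 0.22 to 0.63 for Fcgr4, 0.22 to 0.64 for Fcgr2b and 0.25 to 0.77 for Fcgrt, the lowest without lipid-laden MDM 221 and the highest without MDM 221.

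Counts of members called ran from 0 to 1 both for MDM against microglia and for lipid load in MDM when a library was left out. For lipid load in MDM the count was 1 in the fit reported, 0 with DESeq2's size factors or only the groups compared, and 2 with the replicate block, in edgeR and DESeq2 alike, Fcgr2b being added (0.36, adjusted p = 0.0423 in edgeR, and 0.00693 in DESeq2). For the difference of lipid-load effects the count was 0, and 1 with the replicate block in DESeq2 (Fcgr3, 0.51, adjusted p = 0.0446).
Counts over all genes moved more. DESeq2 called 798 against 413 for lipid-laden MDM against lipid-laden microglia, 164 against 0 for lipid load in microglia, 1982 against 1213 for lipid load in MDM and 960 against 375 for the difference of effects. Only the groups compared gave 176 for the first of these, and no filter gave 17 for the second. Leaving out a library gave 168 to 378, 0 to 64, 657 to 1052 and 186 to 452 in the same order.

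The replicate block called 119 genes for lipid load in microglia and 657 for the difference of effects, and in DESeq2 1204, 602, 2552 and 1565 in the order above. For MDM against microglia (same-number correlations 0.0152 to 0.150, others up to 0.0296) and lipid load in MDM (0.0272 to 0.123, others up to 0.0559) the pairing rule was not met. There the block gave adjusted p = 0.00149 and 0.0124 for Fcgr3. With the block Fcgrt was 0.24 and Fcgr4 0.29 for lipid load in MDM. In edgeR it changed no other call of a member than that of Fcgr2b. Inpp5d was called lower in MDM with the block (adjusted p = 0.0269), and the interferon gamma list then had 11 genes higher and 2 lower in MDM, and 1 higher and 7 lower with lipid load in MDM. Of the other Fc receptors tested, 0 were called higher in MDM than in microglia with the block, so the call of Fcmr was lost.

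The test of numbers called 218 genes, 382 without a filter, 1315 with DESeq2's likelihood ratio test, 38 without the lipid-laden libraries of 221, and 14 to 143 when all libraries of a number were left out, with 0 to 3 members called. Fcgr3 was also called by number in DESeq2 (adjusted p = 0.00369).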

Other observations

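For each Fc receptor gene, the other genes whose log2 CPM followed it most closely over the 15 libraries were ranked by Pearson's r among 8557 genes with a mean log2 CPM of at least 3, predicted genes left out. For Fcgr3 these were Tango2 (0.917), Slamf6 (0.907) and Cd79b (0.906). For Fcgr1 they were Eef2k (0.896), Ntpcr (0.889) and Lgals9 (0.867). For Fcgr4 they were Capza2 (0.929), Rnf115 (0.918) and the chemokine gene Ccl7 (0.900). For Fcgr2b they were Snx6 (0.924), Ap2m1 (0.892) and Slc31a2 (0.887). For Fcgrt they were Tmbim6 (0.944), Tram1 (0.900) and Fcgr4 itself (0.897). The γ chain Fcer1g had lower values, with Akr1a1 (0.775), the macrophage gene Aif1 (0.773) and Dctn6 (0.748). The points share their groups and title numbers, so the values are a description with no test.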
